A study of Mus musculus with 24 samples.

Results

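Lyz1, Lyz2, Elmo1, Havcr2 and Ms4a4d, mouse genes better known from blood cells and other tissues than from fibroblasts, were followed through the RNA-Seq of NIH 3T3 cells that carried the fusion proteins TAZ-CAMTA1 or YAP-TFE3. They are 5 of the 39017 gene identifiers in the count files. They were selected on their measured levels in these libraries, because they were high with one or both fusion proteins and low with empty vector, so their levels in every group, empty vector included, are given as a description, without a test. All 5 passed the filter on low counts (on average 5 or more counts per library over the 24 libraries, met by 14361 genes), Lyz1 only through the group in which it was high. The word myeloid describes what Lyz2, and in part Havcr2, is known for. It is not used here as a name for the cells. Adgre1 and Tyrobp, defining genes of macrophages, had no count. Other macrophage markers were higher than with empty vector, such as Csf1r and Cd68 with hyperactive YAP and Cd14 with both fusion proteins.

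NIH 3T3 is an immortalized line of mouse embryonic fibroblasts. There were 24 libraries, 3 for each of 8 groups, each from cells transduced on their own with a retroviral vector and selected as a pool, not as a single clone. The groups carried empty vector (EV), hyperactive TAZ (TAZ4SA) or YAP (YAP5SA), full-length CAMTA1 or TFE3, or one of the fusion proteins, which join the amino-terminal part of TAZ to CAMTA1 or that of YAP to TFE3. A second empty vector group (EVsub) was sub-confluent, as were the CAMTA1 cells, and by the labels the 6 remaining groups had been held at confluence for 48 h, although the methods leave room for TAZ-CAMTA1 to have been sub-confluent. Each library held between 16471181 and 30132586 counts (median 22298975). The constructs could be checked in these mouse counts only in part. Mouse Camta1 was at a TMM-normalized level in CPM (counts scaled to a common library total) of 9.23 to 11.2 in CAMTA1, above the 3.95 to 5.6 of EVsub, and of 4.35 to 5.01 in TAZ-CAMTA1. Tfe3 was at 75.6 to 83.6 CPM in YAP-TFE3, 68 to 74.4 in TFE3 and 84.6 to 93.2 in EV. Whether these counts include reads of the constructs was not tested.

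Lyz1 and Lyz2 encode lysozyme, the secreted enzyme that cuts the peptidoglycan of bacterial cell walls. In the mouse the gene is duplicated: Lyz2 is the macrophage and neutrophil copy, much used as a driver of Cre in myeloid cells, and Lyz1 is best known from the Paneth cells of the small intestine. Elmo1 encodes an adaptor that works with DOCK proteins to activate Rac during the engulfment of dying cells and in migration. Havcr2 encodes TIM-3, a receptor of T cells, dendritic cells and macrophages that binds galectin-9 and dampens immune responses. Ms4a4d belongs to the Ms4a cluster of membrane proteins that cross the membrane several times, many of them expressed in blood cells. TAZ and YAP act on genes through TEAD transcription factors, and TFE3 belongs to the MiT/TFE family, which binds the E-box.

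The lysozyme genes lie side by side on chromosome 10 of mm10, Lyz1 at chr10:117287797-117292868 and Lyz2 at chr10:117277331-117282321, both on the minus strand. Their coding sequences were 95.1% identical (425 of 447 bases), so the first question was whether reads could be told apart. The windows of 75 coding bases in which they differed most (coding bases 58 to 132, 12 differences, in capitals) are shown to make that visible. They lie at chr10:117292707-117292781 for Lyz1 and at chr10:117282111-117282185 for Lyz2 (GENCODE M21, minus strand, 5′ to 3′):
Lyz1: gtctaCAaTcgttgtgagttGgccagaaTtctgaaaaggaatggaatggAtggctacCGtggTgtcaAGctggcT
Lyz2: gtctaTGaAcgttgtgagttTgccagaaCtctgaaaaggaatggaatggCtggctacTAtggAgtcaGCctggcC
Of the 1189 windows of 75 bases in the Lyz1 transcript, 74 (6.22%) also occurred without a mismatch in Lyz2. Reads of the 2 genes could therefore be told apart over most of their length, but the methods do not say by which of the routes they describe the deposited counts were made, and a small share of either gene's counts could belong to the other.

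The 250 bases before the transcription start were read for all 5 genes from the RefSeq promoter table (GRCm38.p6, the same coordinates as mm10), because the genes are set beside each other here and the fusion proteins act through DNA-binding partners. All 5 genes matched the table, Elmo1 with 2 starts. Motifs were searched on both strands: the TEAD letters were CATTCC, the E-box of MiT/TFE proteins was CACGTG, the AP-1 letters were TGANTCA, the RUNX letters were TGTGGT, and those of PU.1, the factor that directs myeloid development, were GAGGAA. Capitals mark the matches. The sequences are Lyz1 at chr10:117292869-117293118 (minus strand), Lyz2 at chr10:117282322-117282522 (minus strand, cut where the GENCODE transcript begins), Ms4a4d at chr19:11536544-11536793 (plus strand) and Havcr2 at chr11:46454681-46454930 (plus strand):
Lyz1: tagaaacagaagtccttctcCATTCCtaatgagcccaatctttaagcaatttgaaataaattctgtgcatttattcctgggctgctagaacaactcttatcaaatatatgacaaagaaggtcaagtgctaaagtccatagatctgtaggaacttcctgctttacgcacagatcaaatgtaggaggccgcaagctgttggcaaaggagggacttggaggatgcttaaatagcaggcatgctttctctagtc
Lyz2: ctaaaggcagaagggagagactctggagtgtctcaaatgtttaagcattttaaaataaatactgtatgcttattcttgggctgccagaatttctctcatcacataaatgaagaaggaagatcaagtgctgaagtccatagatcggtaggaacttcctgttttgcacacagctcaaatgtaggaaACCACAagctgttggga
Ms4a4d: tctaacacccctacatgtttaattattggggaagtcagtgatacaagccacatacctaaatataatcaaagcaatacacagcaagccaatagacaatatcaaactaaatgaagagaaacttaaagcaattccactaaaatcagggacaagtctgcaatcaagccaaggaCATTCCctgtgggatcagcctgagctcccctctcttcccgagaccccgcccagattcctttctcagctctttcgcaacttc
Havcr2: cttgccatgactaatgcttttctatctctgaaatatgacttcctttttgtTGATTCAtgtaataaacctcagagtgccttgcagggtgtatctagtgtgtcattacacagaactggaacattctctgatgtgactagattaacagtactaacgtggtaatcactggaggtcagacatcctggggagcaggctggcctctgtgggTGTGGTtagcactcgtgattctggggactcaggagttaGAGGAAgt
CATTCC stood once in Lyz1, 230 bases before the start, and once in Ms4a4d, 81 bases before it, against 12.6% of 32851 promoters. CACGTG was in none of the windows of the 5 genes and in 6.02% of all promoters. Havcr2 held 1 match each to the AP-1, RUNX and PU.1 letters, 200, 46 and 8 bases before its start, which 6.75%, 14% and 23.3% of all promoters hold. Lyz2 held 1 match to the RUNX letters, 66 bases before its RefSeq start. That start lies inside the GENCODE transcript, so the match is closer to the end of the printed sequence. Neither Elmo1 window held any of the motifs. In a global alignment of the 250 bases, 200 were identical between Lyz1 and Lyz2, yet the CATTCC of Lyz1 was not in Lyz2. These matches are letters in a window and do not show binding.

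Lyz2 had the highest level of the 5 genes in YAP-TFE3, in CPM and per length, and was also high in TAZ-CAMTA1. TMM-normalized levels in YAP-TFE3 were 240, 113 and 128 CPM in replicates 1, 2 and 3, with a mean of 160 ± 69.3 (SD, n = 3). In TAZ-CAMTA1 the levels were 24, 21 and 19.9 CPM. EV lay at 0.169, 0.382 and 0.619 CPM, from 4 to 14 counts, so Lyz2 was low but not silent in fibroblasts. The ratio of the mean CPM to EV was 410 in YAP-TFE3 and 55.4 in TAZ-CAMTA1, and YAP-TFE3 was 7.41 times TAZ-CAMTA1, with no overlap between libraries. The full-length proteins stayed near EV: TAZ4SA had 0.939 ± 0.564 CPM, YAP5SA 0.49 ± 0.237, TFE3 0.339 ± 0.0617 and CAMTA1 0.167 ± 0.144 (SD, n = 3), each overlapping EV. CAMTA1 also overlapped its own control EVsub, at 0.157 ± 0.0964. Among these lower groups the order was TAZ4SA, YAP5SA, EV, TFE3, CAMTA1 and EVsub, and only TFE3 and CAMTA1 were neighbours in it whose libraries did not overlap.

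Lyz1, the intestinal copy, was detected above 1 count in a single group. Its counts in YAP-TFE3 were 80, 48 and 24, or 4.01, 1.61 and 1.02 CPM. In TAZ-CAMTA1, where Lyz2 was also high, the counts were 0, 1 and 1. YAP5SA had 1, 0 and 0 counts, and EV, EVsub, TAZ4SA, CAMTA1 and TFE3 had 0 in every library, which allows up to 3 counts in each. Set against that limit in each library, YAP-TFE3 was at least 16.5-fold higher than EV. The bound against TAZ-CAMTA1 was at least 17.4-fold higher, and YAP-TFE3 replicate 1 set much of both: without it they were 9.78 and 10.3.

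Lyz1 took a small share of the lysozyme counts. In YAP-TFE3 it made up 152 of 11311 counts on the 2 genes, or 1.34% (Wilson 95% interval 1.15 to 1.57%), and the share was 1.65%, 1.41% and 0.789% in replicates 1, 2 and 3. In TAZ-CAMTA1 it was 2 of 1544 counts, or 0.13% (0.0355 to 0.471%). The pooled intervals did not overlap, but single libraries did: the lowest YAP-TFE3 library had an interval of 0.531 to 1.17%, and TAZ-CAMTA1 replicate 2 one of 0.0392 to 1.25% and replicate 3 one of 0.0353 to 1.12%. The intervals cover counting error only. A share of this size is below the 5.96% of the 1242 Lyz2 windows of 75 bases that also occur in Lyz1. These windows stand for single reads, although the libraries were paired-end. The part of misassigned Lyz2 reads in the Lyz1 counts was not tested.

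Elmo1, at chr13:20090596-20608353 on the plus strand, followed Lyz2 most closely. YAP-TFE3 libraries had 96.6, 52.2 and 52.8 CPM. TAZ-CAMTA1 libraries had 6.15, 5.22 and 6.62 CPM, and EV libraries 0.338, 0.764 and 0.31 CPM (8, 16 and 7 counts). The 3 groups did not overlap. Mean CPM was 143 times that of EV in YAP-TFE3 and 12.7 times in TAZ-CAMTA1, and YAP-TFE3 was 11.2 times TAZ-CAMTA1. The other 6 groups had means from 0.316 CPM in EVsub to 0.795 CPM in YAP5SA, and each overlapped its neighbour in the order. The annotation places genes that are not in the count files inside Elmo1, one of them antisense, and without the strand setting reads of such genes and of Elmo1 could not be separated.

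**Figure D1:**
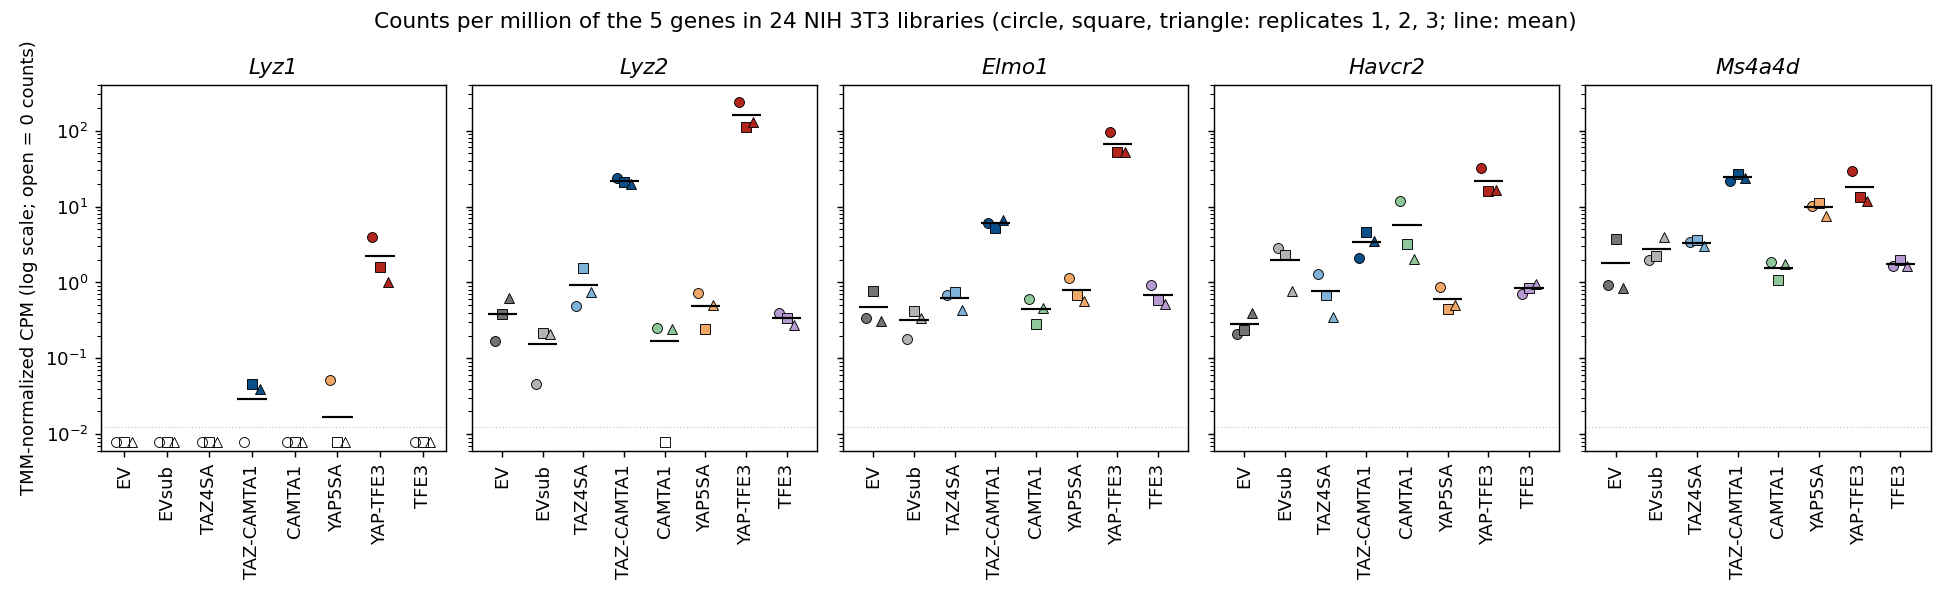
TMM-normalized CPM (log axis) of Lyz1, Lyz2, Elmo1, Havcr2 and Ms4a4d in each of the 24 libraries by group. Circles, squares and triangles are replicates 1, 2 and 3, lines are group means, and open symbols under the dotted line are libraries with 0 counts. YAP-TFE3 lies above every other library for the first 4 genes, and for Ms4a4d it overlaps TAZ-CAMTA1.

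Havcr2, at chr11:46454935-46481255 on the plus strand, was highest in YAP-TFE3 and also differed between the empty vector groups. YAP-TFE3 libraries had 32.5, 15.8 and 16.5 CPM, against 0.211, 0.239 and 0.398 CPM in EV, a ratio of means of 76.5. TAZ-CAMTA1 had 2.1, 4.61 and 3.51 CPM, 12.1 times EV. The second highest mean belonged to full-length CAMTA1, at 11.7, 3.19 and 2.04 CPM, whose libraries overlapped those of TAZ-CAMTA1 and EVsub. CAMTA1 replicate 1 decided that place: its 325 counts stood beside 67 and 66 in the other libraries, and without it the ratio of CAMTA1 to EVsub went from 2.89 to 1.34.

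The comparison of EVsub with EV shows how these genes stood at low and high density in cells without a construct. Low EV values were part of the choice of the genes, which favours a difference upwards from EV, so this contrast too is a description. Havcr2 had 2.82, 2.28 and 0.761 CPM in EVsub (62, 64 and 18 counts), and every EVsub library was above every EV library. The ratio of means was 6.92, and the fitted log2 fold change was 2.77 ± 0.73 (SE). Havcr2 was the 1 gene past the threshold of the 4 with a fit, beside 12.5% of all genes called higher and 9.59% called lower, and nothing is read from that count.

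For the other members the EVsub and EV libraries overlapped. The ratio of means of EVsub to EV was 0.402 for Lyz2, 0.671 for Elmo1 and 1.5 for Ms4a4d, with fitted log2 fold changes of -1.23 ± 0.76, -0.51 ± 0.5 and 0.61 ± 0.43 (SE). The value of Ms4a4d rested on EV replicate 2, without which the ratio was 3.11. Lyz1 was at 0 in both groups. At these counts a change of modest size in Lyz2 or Elmo1 was not detectable.

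For Havcr2 the choice of reference changed the size of the difference. Against EVsub, TAZ-CAMTA1 was 1.74 times as high and its libraries overlapped EVsub (2.82 against 2.1 CPM at the edges), while YAP-TFE3 was 11.1 times as high without overlap. The wording of the methods could place TAZ-CAMTA1 among the sub-confluent cells, while the labels do so for CAMTA1 alone, so for Havcr2 in TAZ-CAMTA1 density and the fusion protein cannot be told apart with EV alone. For Lyz2, Elmo1 and Ms4a4d the ratios of TAZ-CAMTA1 to EVsub were 138, 19.0 and 8.77.

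Ms4a4d, at chr19:11536801-11558467 on the plus strand, had a different order of groups. Its highest mean was in TAZ-CAMTA1, at 21.9, 26.7 and 23.9 CPM, which overlapped YAP-TFE3 at 29.0, 13.2 and 11.7 CPM. YAP5SA followed at 10.3, 11.2 and 7.6 CPM, below every library of both fusion proteins and above every library of the remaining groups. The ratio of its mean to EV was 5.31 in YAP5SA, 1.84 in TAZ4SA, 0.967 in TFE3 and 0.856 in CAMTA1. Lyz2, Elmo1 and Havcr2 had ratios to EV of at most 2.95 in YAP5SA, TAZ4SA and TFE3, while Havcr2 in the sub-confluent CAMTA1 cells, with replicate 1 far above the others, was at 20 times EV. The mean of YAP-TFE3 was 0.743 times that of TAZ-CAMTA1, where for Lyz2, Elmo1 and Havcr2 it was 6.34 to 11.2 times.

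The EV level of Ms4a4d hung on 1 library. EV had 0.928, 3.72 and 0.84 CPM (22, 78 and 19 counts), and without replicate 2 the ratio to EV went from 13.2 to 27.3 in TAZ-CAMTA1, from 9.81 to 20.3 in YAP-TFE3 and from 5.31 to 11 in YAP5SA.

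Levels can be set between genes only per length of exon. In CPM per kb, Lyz2 led in YAP-TFE3 with 122 ± 52.6 (SD, n = 3), followed by Ms4a4d at 11.9 ± 6.33, Havcr2 at 7.94 ± 3.48, Elmo1 at 5.34 ± 2.02 and Lyz1 at 1.75 ± 1.25. In TAZ-CAMTA1, Lyz2 (16.4 ± 1.6) and Ms4a4d (16 ± 1.6) had overlapping levels, and Havcr2 (1.25 ± 0.462) and Elmo1 (0.477 ± 0.0569) were lower. The exon length of Elmo1, 12580 bases over all annotated transcripts, is longer than a single transcript and lowers its value per kb.

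Within YAP-TFE3, replicate 1 was the highest library for all 5 genes, 1.85 to 2.5 times replicate 2 and 1.83 to 3.94 times replicate 3. It was also the highest for 87.0% of the 1518 other genes called higher in YAP-TFE3 than in EV, so the 5 genes shared this with most of the genes that rose. In TAZ-CAMTA1 the highest library differed by gene. Without YAP-TFE3 replicate 1 the ratios to EV were 309 for Lyz2, 112 for Elmo1, 57.2 for Havcr2 and 6.8 for Ms4a4d, and that of Lyz1 was at least 9.78. Over the remaining libraries, Lyz2, Elmo1, Havcr2 and Lyz1 in YAP-TFE3 stayed above every library of the other groups.

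**Figure D2:**
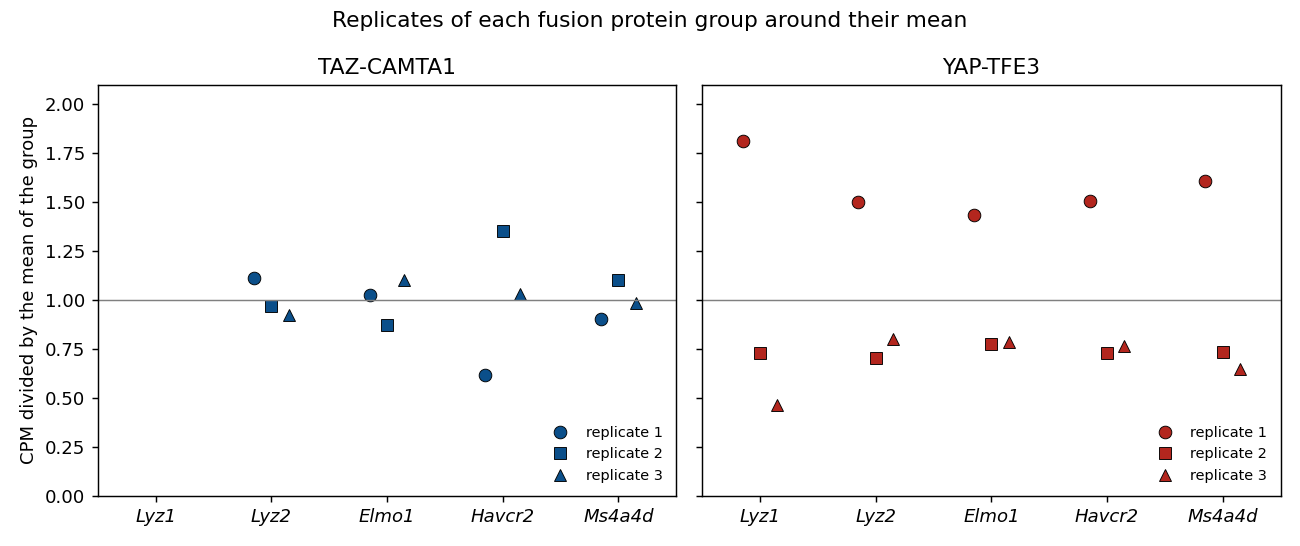
CPM of each library of TAZ-CAMTA1 and YAP-TFE3 divided by the mean of its group (linear axis) for the 5 genes, with Lyz1 left out in TAZ-CAMTA1. Replicate 1 of YAP-TFE3 is above 1 and replicates 2 and 3 are below 1 for every gene, and TAZ-CAMTA1 shows no such order.

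Whether these cells showed other myeloid genes was asked with 39 markers, of which 38 were in the count files and 11 passed the filter. Adgre1 (F4/80) and Tyrobp, an adaptor of myeloid receptors, were at 0 in all 24 libraries. Ptprc, which encodes the blood cell marker CD45, had at most 4 counts in any library, Spi1, which encodes PU.1, at most 3, and Fcer1g at most 6. No more than 3 counts in any library were found for 15 of the 38. Itgam (CD11b) was at 0.0557 ± 0.0511 CPM in YAP-TFE3, 0.0537 ± 0.0618 in TAZ-CAMTA1 and, in the EV libraries, 0.0159 ± 0.0276 (SD, n = 3). Of the defining markers named before Itgam, every one was thus at or near 0 in the libraries where Lyz2 was high.

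Of the 11 markers tested, 2 rose and 1 fell in TAZ-CAMTA1, and 1 rose and 0 fell in YAP-TFE3. Over all genes, 12.5% were called higher and 8.98% lower in TAZ-CAMTA1, and 10.6% and 4.74% in YAP-TFE3, beside 18.2% and 9.09% of the markers in TAZ-CAMTA1 and 9.09% higher in YAP-TFE3, shares of 1 or 2 genes. Cd14, the co-receptor for bacterial lipopolysaccharide, rose in both, with log2 fold changes of 1.60 ± 0.25 in TAZ-CAMTA1 and 1.19 ± 0.25 in YAP-TFE3 (SE, adjusted p 6.35e-05 and 0.00168). Trem2, a lipid receptor of macrophages, fell in TAZ-CAMTA1 (-1.22 ± 0.39, adjusted p 0.0275), a call lost without EV replicate 1 or 3 or TAZ-CAMTA1 replicate 1 or 3. The median log2 fold change over the 11 markers was -0.15 in TAZ-CAMTA1 and 0.73 in YAP-TFE3, beside about 0 over all genes.

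Some macrophage genes were far higher with the hyperactive full-length proteins, in which the lysozyme genes were low. The CSF-1 receptor gene Csf1r was at 40 ± 12 CPM in YAP5SA and 5.41 ± 2.97 in TAZ4SA, against 0.635 ± 0.159 in EV (SD, n = 3). The log2 fold changes were 5.96 ± 0.41 and 3.08 ± 0.41 (SE, adjusted p 4.14e-11 and 1.66e-06), and YAP-TFE3 had 1.14 ± 0.45 (0.0923) and TAZ-CAMTA1 -0.69 ± 0.55 (0.404). Cd68, a lysosomal protein of macrophages, rose by 4.39 ± 0.4 in YAP5SA and 3.67 ± 0.39 in TAZ4SA (adjusted p 2.8e-09 and 9.02e-08) and was at -0.04 ± 0.41 in YAP-TFE3 and -0.63 ± 0.43 in TAZ-CAMTA1 (0.971 and 0.317). In the same groups the ratio of mean CPM to EV was 1.26 to 2.73 for Lyz2, Elmo1 and Havcr2. Other markers went the other way. Trem2 had log2 fold changes of -2.69 ± 0.47 in TAZ4SA and -2.73 ± 0.47 in YAP5SA (SE, adjusted p 4.7e-05 and 2.29e-05). Lst1 had -1.73 ± 0.5 in YAP5SA (0.00384). The difference between the hyperactive proteins and the fusion proteins in these markers was not itself tested.

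Over the whole marker list the calls were as follows. Of the 11 markers, 6 were called higher and 1 lower in TAZ4SA (31.1% and 26.4% of all genes), and 4 higher and 2 lower in YAP5SA (36.3% and 34.9%). TFE3 had 0 and 0 (2.35% and 1.02% of all genes), and CAMTA1 against EVsub had 0 and 1 (1.29% and 0.891%). Summed over the 38 markers, levels were 10.5 to 12.7 CPM in EV, 13.4 to 16.7 in TAZ-CAMTA1 and 16.9 to 18.2 in YAP-TFE3, but 25.8 to 79.1 in TAZ4SA and 90.6 to 142 in YAP5SA. Of 15 lymphoid and other blood markers, 2 were tested, and 0 were called with either fusion protein. The part of other cells in the levels of Lyz2 was not tested, and in bulk libraries fewer expressing cells and less RNA per cell cannot be told apart.

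Fibroblast genes stayed high. The 16 fibroblast markers, all tested, summed to 44400 to 49700 CPM in TAZ-CAMTA1 and 46500 to 60700 in YAP-TFE3, against 40200 to 44000 in EV. Fn1 and Col1a2, at 17500 and 8010 CPM in EV, made up much of this sum. Of the 16, 4 rose (25%) and 1 fell (6.25%) in TAZ-CAMTA1, beside 12.5% and 8.98% of all genes. In YAP-TFE3 5 rose (31.2%) and 1 fell (6.25%), beside 10.6% and 4.74% of all genes. The median log2 fold changes over the 16 were -0.06 in TAZ-CAMTA1 and 0.01 in YAP-TFE3. Thy1 had log2 fold changes of 0.76 in TAZ-CAMTA1 and 1.49 in YAP-TFE3, the matrix gene Sparc of 1.03 and 0.89, and the collagen genes Col1a1 of 0.73 and 0.97 and Col1a2 of 0.53 (not called) and 0.82. Pdgfrb, a receptor for platelet-derived growth factor, fell in both, by 0.56 ± 0.12 and 0.37 ± 0.12 (SE, adjusted p 0.00225 and 0.0459). Prrx1, a mesenchymal transcription factor, had -0.17 (not called) and 0.44. With a library left out, 2 to 3 rose in TAZ-CAMTA1 (2 without EV replicate 1 or TAZ-CAMTA1 replicate 1) and 2 to 5 in YAP-TFE3 (2 without YAP-TFE3 replicate 1), and 0 to 2 fell in YAP-TFE3.

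**Figure D3:**
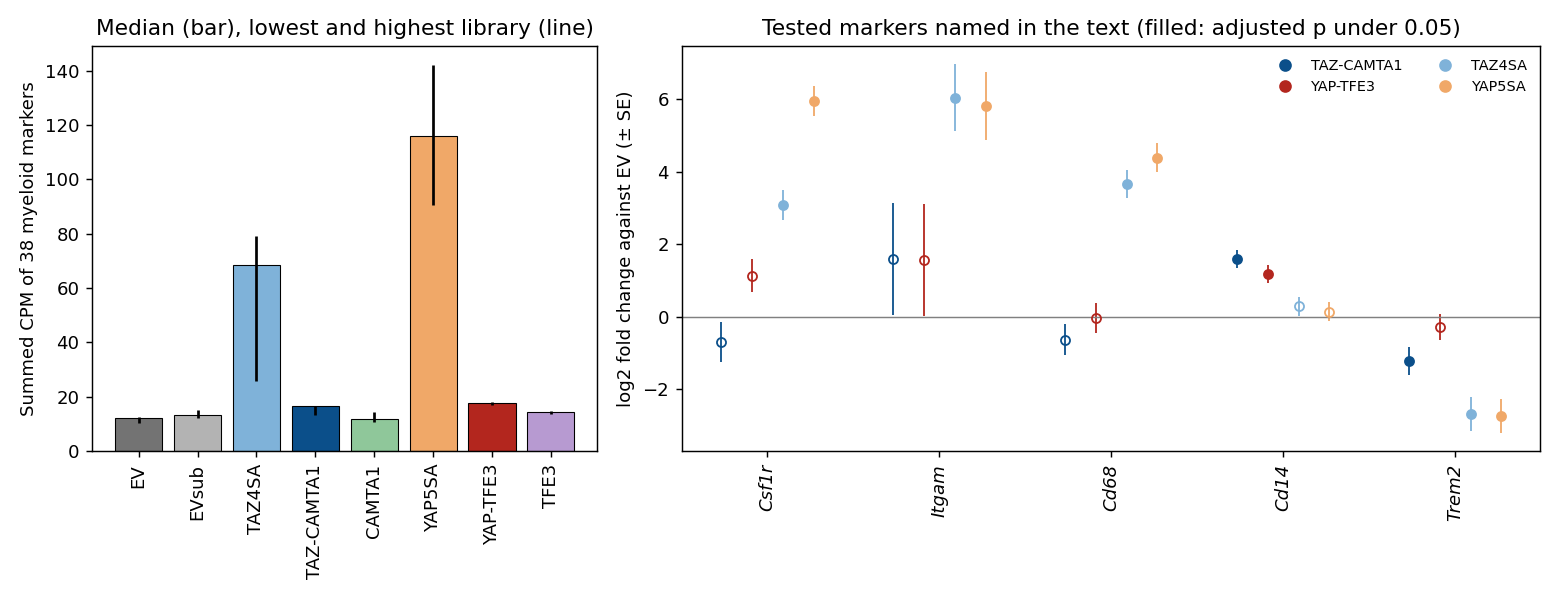
Left, CPM summed over 38 myeloid markers by group (bar, median of 3 libraries; line, lowest to highest library; linear axis from 0). Right, log2 fold change against EV with SE for the tested markers Csf1r, Itgam, Cd68, Cd14 and Trem2 in 4 groups, filled where the adjusted p was under 0.05. The sums are highest in YAP5SA and TAZ4SA, mostly from Csf1r and Cd68, and Csf1r, Itgam and Cd68 are filled for those 2 groups only.

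Of 16 transcription factors of myeloid cells, 9 passed the filter. In TAZ-CAMTA1 2 rose (22.2%) and 2 fell (22.2%), beside 12.5% and 8.98% of all genes. In YAP-TFE3 2 rose (22.2%) and 1 fell (11.1%), beside 10.6% and 4.74% of all genes. These are shares of 1 or 2 genes. The number that rose in TAZ-CAMTA1 was 1 without EV replicate 1 or 3 or TAZ-CAMTA1 replicate 1. The lineage factor genes Spi1, Cebpa, Cebpe, Irf8 and Batf3 did not exceed 3 counts in any library. Tfec, a MiT/TFE relative of TFE3 found in macrophages and osteoclasts, rose in both fusion groups, to 1.26 ± 0.486 CPM in YAP-TFE3 and 0.382 ± 0.206 in TAZ-CAMTA1 from 0.06 ± 0.0522 in EV (SD, n = 3). Its log2 fold changes were 4.26 ± 0.72 and 2.57 ± 0.84 (SE, adjusted p 0.000196 and 0.0313), and TAZ4SA (-0.13 ± 1.26, 0.939) and YAP5SA (1.97 ± 0.93, 0.0639) did not pass. Klf4 rose with both fusion proteins (2.26 ± 0.17 in TAZ-CAMTA1 and 1.78 ± 0.17 in YAP-TFE3), but also with TAZ4SA and YAP5SA (2.40 and 2.38). Runx1 fell with both (-0.60 and -0.95) and Mitf with TAZ-CAMTA1 (-0.84, adjusted p 0.00609), and in YAP5SA these genes were at -1.69 and -3.68.

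Relatives of the lysozyme and Ms4a genes were at or near 0. All 8 other lysozyme and lactalbumin genes and all 15 other Ms4a genes in the files had at most 3 counts in every library, 2 and 8 of them 0 throughout. Ms4a4d had 275 to 599 counts in the fusion libraries, while Ms4a4b had 0 and Ms4a4c at most 1 count in any library. Havcr1, Timd2 and Timd4, the other TIM genes, had at most 1 count.

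Some partners of TIM-3 and ELMO1 were expressed in the fibroblasts with or without a fusion protein, but the TIM-3 ligand gene Ceacam1 had at most 3 counts and Dock2 at most 1 in any library. Of the 4 tested genes of the TIM-3 list, Lgals9, which encodes galectin-9, rose, with log2 fold changes of 0.47 ± 0.16 in TAZ-CAMTA1 and 0.96 ± 0.16 in YAP-TFE3 (SE, adjusted p 0.0424 and 0.000216). Its level was 104 ± 21.3 CPM in YAP-TFE3 and 263 ± 44.4 in YAP5SA (SD, n = 3). The kinase gene Fyn rose by 0.26 ± 0.09 and 0.63 ± 0.09 (adjusted p 0.0407 and 3.47e-05), and no tested gene of the list fell. In TAZ-CAMTA1 both calls were lost with any 1 library left out and with DESeq2 size factors, and 1 of them with no filter, whereas in YAP-TFE3 the count stayed at 2 under each of these.

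Of the 25 tested genes of engulfment around ELMO1, 3 rose (12%) and 4 fell (16%) in each fusion group. Over all genes, 12.5% rose and 8.98% fell in TAZ-CAMTA1, and 10.6% and 4.74% in YAP-TFE3. Megf10, an engulfment receptor, fell most, by 1.64 ± 0.32 on the log2 scale in TAZ-CAMTA1 and by 1.98 ± 0.32 in YAP-TFE3, and the receptor kinase Mertk fell by 0.76 ± 0.20 in both. Dock1, the main DOCK partner of ELMO1, fell by 0.44 ± 0.10 and 0.34 ± 0.10, from 138 CPM in EV to 102 and 109. Dock4 rose in YAP-TFE3 (0.79 ± 0.19), Gas6, a ligand of MERTK, in TAZ-CAMTA1 (0.92 ± 0.25), the lipid transporter Abca7 in YAP-TFE3 (0.57 ± 0.15), and the receptor Lrp1 in both (0.66 ± 0.16 and 0.61 ± 0.16). The adjusted p of these calls ran from 0.000148 to 0.0178. The falls were larger in TAZ4SA and YAP5SA: -6.16 and -8.08 for Megf10, -4.27 and -4.0 for Mertk, -1.27 and -1.4 for Dock1. In EVsub against EV, without a construct, Megf10 was at -2.55, Mertk at -1.84 and Dock1 at -0.25 (not called). The family members Elmo2 and Elmo3 had log2 fold changes of 0.02 and 0.34 in TAZ-CAMTA1 and 0.23 and 0.17 in YAP-TFE3, none of which passed. The number that rose was 1 in TAZ-CAMTA1 without its replicate 3 and 6 in a fit of the compared groups alone, and in YAP-TFE3 it was 0 without its replicate 1 and 1 without EV replicate 1. The number that fell in YAP-TFE3 was 2 without EV replicate 1 or 3 or without its own replicate 1 or 2. Apart from Megf10, no tested gene of the list moved by 1 log2 unit or more in either fusion group.

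Among endothelial markers, listed because TAZ-CAMTA1 is the fusion of a vascular tumour, Cdh5 (VE-cadherin) rose from 0.0147 ± 0.0255 CPM in EV. It reached 1.67 ± 0.359 CPM in TAZ-CAMTA1 and 0.271 ± 0.0513 in YAP-TFE3 (SD, n = 3). The log2 fold changes were 6.37 ± 0.69 and 3.77 ± 0.91 (SE), with edgeR adjusted p-values of 1.12e-06 and 0.00627. Cdh5 was near the floor in EV and averaged 7.38 counts over the 24 libraries. Kdr and Vwf rose in YAP-TFE3 (3.44 ± 0.58 and 3.79 ± 0.51 log2 units) and were not called in TAZ-CAMTA1. Rises in these genes were also called outside the fusion groups. Cdh5 was called higher in TAZ4SA (3.65 ± 0.95) and YAP5SA (4.19 ± 0.89), at 0.254 and 0.38 CPM, below its level in TAZ-CAMTA1. Kdr was called higher in TAZ4SA (6.91 ± 0.48), YAP5SA (6.33 ± 0.48) and TFE3 (3.37 ± 0.58). Vwf was called higher in TAZ4SA (1.99 ± 0.54) and TFE3 (2.8 ± 0.51), and not in YAP5SA. Over all 9 lists, 14 of 74 tested genes (18.9%) rose and 8 (10.8%) fell in TAZ-CAMTA1, and 16 (21.6%) rose and 6 (8.11%) fell in YAP-TFE3. Over all genes these shares were 12.5% and 8.98% in TAZ-CAMTA1 and 10.6% and 4.74% in YAP-TFE3. The median log2 fold changes of the list genes were -0.03 and 0.12. With a fold change of at least 2 required as well, 6 and 7 of the rises remained in number. The shares over all genes at that limit are not given, and nothing is read from these numbers.

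Most genes next to the 5 loci were not called in either fusion group, as held for all tested genes. Within 500 kb of a start, 23 neighbouring genes were tested. In TAZ-CAMTA1 3 rose and 1 fell, beside 12.5% and 8.98% of all genes. In YAP-TFE3 0 rose and 1 fell, beside 10.6% and 4.74% of all genes. Nothing about the neighbours is read from counts this small. Beside the lysozyme genes, Yeats4 (57.8 kb from Lyz2) had log2 fold changes of 0.07 ± 0.11 and -0.02 ± 0.11, and Cpsf6 (97.7 kb) of 0.14 ± 0.14 and -0.08 ± 0.14 (SE). The noncoding gene D630029K05Rik, 317.6 kb from Lyz2, rose in TAZ-CAMTA1 (1.91 ± 0.47, adjusted p 0.00541) and had 1.43 ± 0.49 in YAP-TFE3 (0.0525). Mdm2 and Nup107, over 400 kb from Lyz1, rose in TAZ-CAMTA1 by 0.74 ± 0.16 and 0.59 ± 0.15, and Slc35e3 fell in YAP-TFE3 by 0.38 ± 0.13 (adjusted p 0.0437). Adam19, 398.9 kb from Havcr2, fell in TAZ-CAMTA1 by 0.58 ± 0.13. None of the 2 tested neighbours of Elmo1 or the 6 of Ms4a4d was called in either fusion group.

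**Figure D4:**
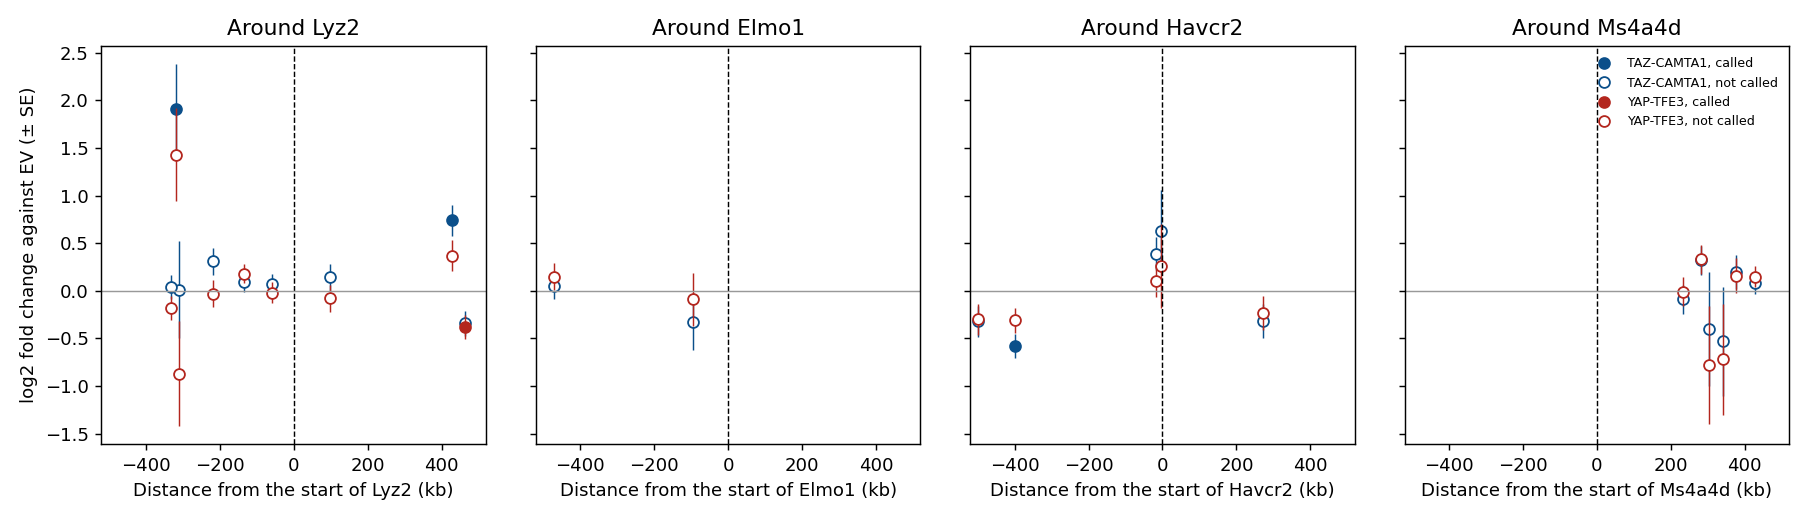
log2 fold change against EV with SE of the tested genes within 500 kb of Lyz2, Elmo1, Havcr2 and Ms4a4d, by signed distance between gene starts in kb, for TAZ-CAMTA1 and YAP-TFE3. Filled points had an adjusted p under 0.05, and apart from D630029K05Rik every point lies between -1 and 1.

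The 5 genes varied among themselves. Over the 24 libraries, which share their groups, Pearson's r of log2 CPM between members was highest for Lyz2 and Elmo1 (0.969) and lowest for Havcr2 and Ms4a4d (0.467). The members were chosen on levels in these libraries, so high values of r between them follow in part from the choice. Among the 11359 genes averaging 50 counts or more, the 3 most like Lyz2 were Gm7609 (0.938), Ptprt (0.913) and Grk4 (0.908), and those most like Elmo1 were Gm7609 (0.934), Ptprt (0.91) and Mgam (0.902). Mgam, an intestinal enzyme of starch digestion, was at 87.6 CPM in YAP-TFE3 and 1.26 in TAZ-CAMTA1. Lyz1 was most like Cyp11b1 (0.987), the adrenal steroid hydroxylase, which was at 116 ± 82.1 CPM in YAP-TFE3 and at or near 0 elsewhere, then C2cd2 (0.928) and Mgam (0.913). Lyz1 itself was at or near 0 outside YAP-TFE3, so its values of r rest on the libraries of that group.

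Havcr2 and Ms4a4d had other company. Havcr2 was most like the lactate transporter gene Slc16a1 (0.899), Col7a1 (0.874) and Ttc39b (0.871). Slc16a1 was at 41.4 CPM in EV, 70.4 in EVsub, 91.3 in CAMTA1 and 125 in YAP-TFE3. Ms4a4d was most like Adamtsl1 (0.943), Ptprt (0.918) and P4ha1 (0.905), a subunit of collagen prolyl hydroxylase. Adamtsl1 had 9.68 CPM in TAZ-CAMTA1, 5.44 in YAP-TFE3 and 2.34 in YAP5SA, the order these 3 groups had for Ms4a4d.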

How the data were processed

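RNA-Seq of 24 NIH 3T3 libraries was analysed. Groups and replicate numbers came from the sample titles; the description of YAP-TFE3 replicate 3 gives another replicate number, and its title was used. The files the authors deposited hold whole-number counts per Ensembl gene, one file per library, not normalized. By the methods, 75 bp paired-end stranded polyA libraries were processed with bcbio-nextgen 1.0.8 and aligned with Hisat2 to mm10 (Ensembl release 97). The methods also describe pseudo-alignment with Salmon and its conversion to gene counts with tximport, and do not say which route gave these whole-number files, nor a strand setting. Paralogs and genes that overlap may share reads.

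Symbols and positions came from GENCODE M21 (37693 of 39017 identifiers matched). The 14361 genes averaging 5 counts or more were TMM-normalized and tested in edgeR 4.0.16 (R 4.3.3), with its quasi-likelihood test. All libraries entered one fit with a coefficient per group, and Benjamini-Hochberg adjusted p-values under 0.05 were called. Adjusted p-values in the text are from this fit, and the model was tested on simulated data. A fold is a ratio of mean CPM, and against a group with at most 3 counts per library it is a lower bound set at 3 counts. Log2 CPM used a prior count of 2. Other steps used Python 3.11.15, pandas 2.3.3 and Biopython 1.88 (alignment). Sequences were read from RefSeq (GRCm38.p6) and GENCODE.

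The members, gene lists and tests were chosen with earlier results of these data known, and EV values were part of the choice, so no contrast tests the members. Named were the 5 members, up to 6 called genes per list with the largest change in a fusion group, 8 defining myeloid markers, up to 3 called neighbours per member, and the 3 genes most correlated with each member. Genes given outside this rule were named after their values were seen. Alternatives were DESeq2 (1.42.0) size factors or its Wald test, no filter (24737 genes), 10 counts in every library of a group (13892 genes), a replicate block, a fit of the compared groups alone, a fold limit, library totals, a prior count of 0.5, the lysozyme genes summed, and each library left out in turn. Libraries held 16471181 to 30132586 counts, and counts of a few reads carry the large counting error seen in EV. By the methods the 3 libraries of a group come from separate transductions. Libraries of other cells were not analysed here. The values of 1 called myeloid marker are not reported here.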

Additional observations from a re-analysis of the deposited data

How the results depend on the processing

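Members past the threshold in EVsub, a description since EV values were part of their choice, numbered 1 to 2 with a library left out (2 without EV replicate 2, where Ms4a4d joined Havcr2). Myeloid markers called higher in TAZ-CAMTA1 numbered 1 under the replicate block and 1 to 2 with a library left out, and those called lower 0 to 1. Myeloid markers higher in YAP-TFE3 numbered 2 by the DESeq2 test, 4 with no filter, 2 with only the groups compared, and 1 to 2 with a library left out. With a fold change of at least 2, the genes of all lists called higher numbered 6 in TAZ-CAMTA1 and 7 in YAP-TFE3, and those lower 2 and 1. With a library left out, those higher numbered 7 to 11 in TAZ-CAMTA1 and 10 to 16 in YAP-TFE3, and those lower 6 to 9 and 3 to 7. These differences' causes were not tested. Shares over all genes under the same settings are not given for these counts or for those named earlier. Nothing about the lists is therefore read from them. The log2 differences of the members from EV in the fusion groups kept their sign under every alternative. The members were chosen on these same levels, so a kept sign adds no support. With a library left out, that of Ms4a4d ran from 3.62 to 4.64 in TAZ-CAMTA1 and from 3.03 to 4.09 in YAP-TFE3. The log2 of the lower bound of Lyz1 in YAP-TFE3 ran from 3.29 to 4.39. Same-numbered libraries of EV and of TAZ-CAMTA1, YAP-TFE3 or EVsub did not deviate together (correlations from -0.153 to 0.174). Other pairs of groups were not examined, so a batch shared by number was not tested for them. With the replicate block Havcr2 in EVsub had a log2 fold change of 2.71. Depth limits Lyz1 outside YAP-TFE3 and the EV levels of Lyz2, Elmo1 and Havcr2, which rest on 4 to 16 counts per library.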
